A study of Homo sapiens with 8 samples.

Results

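The nuclear genes of the respiratory chain and ATP synthase were examined in H1 cells, an established line of human embryonic stem cells, in which doxycycline switches on a short hairpin RNA. Members were the genes whose symbols begin with NDUFA, NDUFB, NDUFC, NDUFS or NDUFV (complex I, without the NDUFAF assembly factors), UQCR (complex III), COX4 to COX8 (complex IV) or ATP5 (complex V), with SDHA, SDHB, SDHC and SDHD (complex II) and CYC1 (complex III). That rule took 93 of 25503 genes with a symbol and a usable value, of which 87 were protein-coding. The other 6 were 3 antisense or divergent RNAs, 2 read-through genes and 1 pseudogene, and they were kept apart. The 87 coding genes had 170 transcripts in the tables.

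Each group was 1 total-RNA library, so there were 8 groups and 8 libraries. Cells carrying a hairpin against EXOSC3 (shEXOSC3) were grown without doxycycline or with doxycycline for 5 days, and without or with it for 7 days. Cells carrying a non-silencing hairpin (shNS) were grown in the same 4 ways. All 8 groups were H1 cells without feeder cells, on Matrigel, at 5% oxygen, in medium with puromycin. EXOSC3 belongs to the core of the RNA exosome, which degrades and trims RNA. Whether a hairpin line was a single clone, and which promoter drove the hairpin, was not stated in the labels. No group had a replicate, so every difference below is a difference between single libraries, with no replicate check and no p-value of its own.

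The respiratory chain sits in the inner membrane of mitochondria. Complex I takes electrons from NADH and complex II takes them from succinate, both pass them to ubiquinone, complex III hands them on to cytochrome c, and complex IV gives them to oxygen. Complexes I, III and IV pump protons, and complex V, the ATP synthase, lets the protons back in to make ATP. Most subunits are encoded in the nucleus, made in the cytosol and imported, while a few core subunits come from mitochondrial DNA, which were not analysed here. Pluripotent stem cells are known to rely strongly on glycolysis, although they keep a functional chain.

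Levels are FPKM, fragments scaled to transcript length and to library size, summed over the transcripts of a gene. FPKM are scaled to transcript length, and levels of different genes are set side by side as a description. How well that scaling holds for short transcripts, or for genes of differing base composition, was not tested. The read counts behind them are unknown. EXOSC3 stood at 25.2 FPKM without and 11.3 FPKM with doxycycline in shEXOSC3 on day 5, against 25.2 and 12.3 FPKM on day 7, which was 45.0% and 48.9% of the untreated level. In shNS it stood at 102% on day 5 and 90.6% on day 7. The members together made up 1.64% to 2.22% of all FPKM in a library. The 3 most abundant transcripts took 23.8% to 27.6% of FPKM on day 5 but 6.21% to 7.16% on day 7, and library composition thus differed between days. Of 9 pluripotency genes on a marker list, 8 had usable values and all 8 passed a mean of 1 FPKM, with a summed level of 1854 to 3218 FPKM. On lists for other cell types, 0 of 4 mesendoderm and 0 of 4 definitive endoderm genes passed, 1 of 4 each for mesoderm, neuroectoderm and trophectoderm, 1 of 5 for heart and skeletal muscle, and 4 of 7 for fibroblasts, whose sum was 98.4 to 225 FPKM, with DCN and LUM listed at 0 in every library. Most of the fibroblast sum was THY1, at 74.1 to 197 FPKM.

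The reading of 1 abundant member depends on a near-identical copy. UQCRH is the hinge protein of complex III, which sits at cytochrome c1, and UQCRHL is its retrocopy. Their coding sequences, 276 bases each, are shown because they differ at only 4 bases, in capitals here, which makes short reads hard to assign.
UQCRH: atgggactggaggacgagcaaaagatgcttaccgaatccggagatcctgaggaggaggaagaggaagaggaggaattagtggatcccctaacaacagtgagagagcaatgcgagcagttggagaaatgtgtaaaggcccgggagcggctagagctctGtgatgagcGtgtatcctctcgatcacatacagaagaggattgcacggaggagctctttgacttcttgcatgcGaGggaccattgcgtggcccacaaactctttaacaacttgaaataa
UQCRHL: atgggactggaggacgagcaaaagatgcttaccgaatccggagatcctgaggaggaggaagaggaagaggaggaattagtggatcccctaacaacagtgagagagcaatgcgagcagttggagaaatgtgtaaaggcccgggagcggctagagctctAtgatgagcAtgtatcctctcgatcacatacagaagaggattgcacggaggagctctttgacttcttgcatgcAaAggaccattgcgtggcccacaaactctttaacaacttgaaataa
Both are from GENCODE 29 transcripts (GRCh38). The substitutions, with the UQCRH base first and positions counted from the A of the start codon, were G158A, G167A, G231A and G233A. Identity was 98.6%, with an identical run of 157 bases. In the deposited tables (hg19), UQCRH lies on chromosome 1 from 46769284 to 46782449 and UQCRHL on chromosome 1 from 16133656 to 16134194.

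The tables divided this pair differently on the 2 days. UQCRHL was listed at 741 and 520 FPKM without and with doxycycline in shEXOSC3 on day 5, against 634 and 641 FPKM in shNS. On day 7 it was listed at 56.1 and 43.3 FPKM in shEXOSC3 and at 54.3 and 45.9 FPKM in shNS. All 4 day 7 libraries thus lay below all 4 day 5 libraries, by 12.7-fold in the means. UQCRH went the other way, from 250.3 to 337 FPKM on day 5 to between 679 and 1069 FPKM on day 7. UQCRHL held 65.5% to 74.0% of the pair's FPKM on day 5 and 4.598% to 6.001% on day 7. The sum of the pair had a mean of 927 FPKM on day 5 and 970 FPKM on day 7, a ratio of 1.05. The sum of the pair is therefore given beside the values of the 2 genes, which are counted singly below, and how each table divided the reads was not tested.

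**Figure D1:**
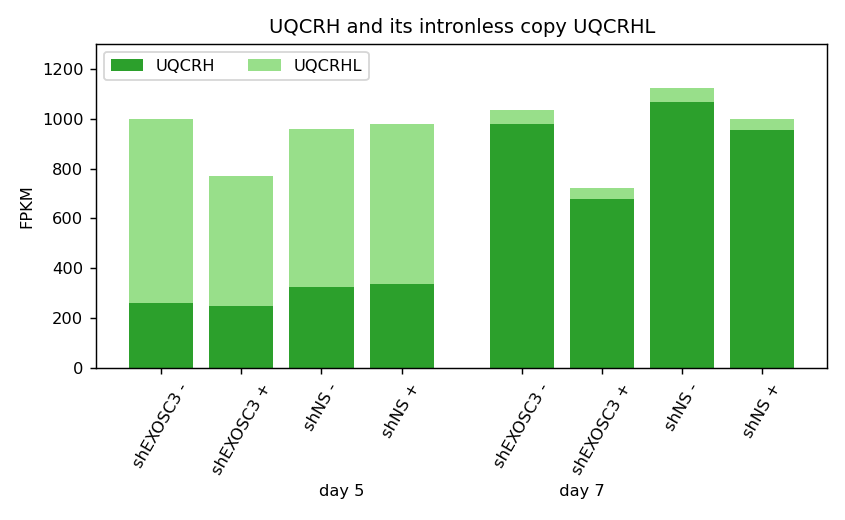
Level (FPKM) of UQCRH (dark) and UQCRHL (light) stacked for each of the 8 libraries, with - for untreated and + for doxycycline. The light part fills 65.5% to 74.0% of the bar on day 5 and 4.598% to 6.001% on day 7, while the full bars of the untreated libraries stay between 958 and 1123 FPKM.

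UQCRB, the small complex III subunit near the ubiquinone site, has a similar partner, the pseudogene UQCRBP1, which is the 1 of 186 pseudogenes with matching names in the symbol table that has an entry in the data. UQCRBP1 was listed at 6.46 to 11.1 FPKM on day 5 and at 165 to 225 FPKM on day 7. UQCRB itself stood at 21.4 to 31.1 FPKM on day 5 and 51.0 to 66.8 FPKM on day 7, so in this case gene and pseudogene were both higher on day 7. Reads of the 2 copies could be shared, and their levels are uncertain for that reason.

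Of the 87 coding members, 80 reached a mean of 1 FPKM over the 8 libraries and were compared. These were all 37 of complex I, all 4 of complex II, all 10 of complex III, 11 of 17 of complex IV and 18 of 19 of complex V. No member (0) was lost to a failed estimate. Summed levels were highest for complexes I and V, at 3781 to 5088 FPKM and 4001 to 5026 FPKM, and lowest for complex II, at 100.2 to 206 FPKM. The median gene of complex IV had a mean of 249.8 FPKM and that of complex V 227 FPKM, against 75.6 FPKM in complex I, 73.6 FPKM in complex III and 34.9 FPKM in complex II. The most abundant members by the mean of all 8 libraries were small subunits. COX7C of complex IV led with a mean of 1085 FPKM, followed by NDUFS5 of complex I at 693 FPKM, UQCRH at 606 FPKM and ATP5ME, subunit e of the ATP synthase, at 542 FPKM. This order differed between the days. On day 5 COX7C led with a mean of 1411 FPKM, and ATP5F1B (670.5 FPKM), the catalytic beta subunit of the ATP synthase, and ATP5ME (659 FPKM) stood above NDUFS5 (449 FPKM). On day 7 NDUFS5 (936 FPKM) and UQCRH (920.0 FPKM) stood above COX7C (759 FPKM), and NDUFS5 was above COX7C in each of the 4 day 7 libraries. The place of UQCRH depends on how the tables divided it from UQCRHL. That of ATP5ME rests on a noncoding transcript, listed at 370 to 444 FPKM on day 5, against 211 to 289 FPKM for its coding transcript. The iron-sulfur subunit SDHB led complex II at 73.8 FPKM. The membrane anchor SDHC was the least abundant of the 80 at 7.10 FPKM.

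**Figure D2:**
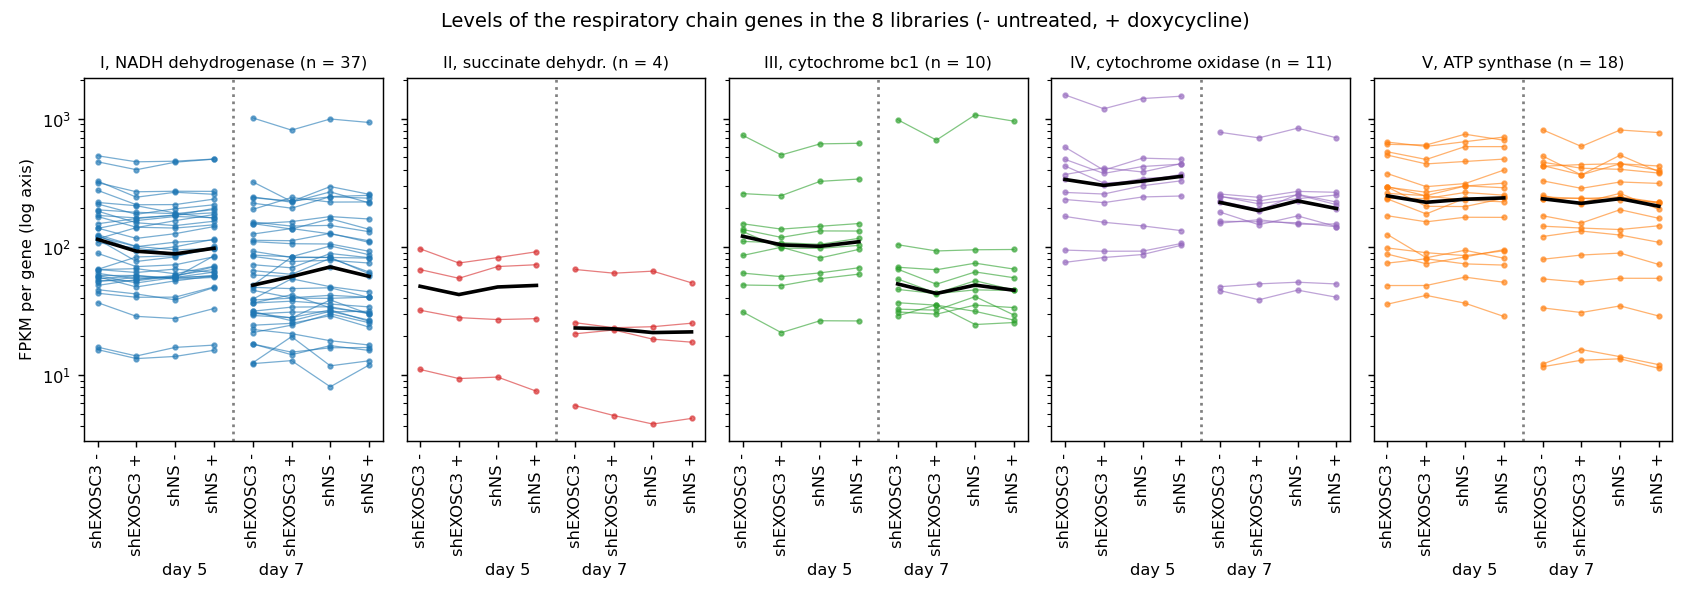
Level (FPKM, log axis) of each of the 80 members in the 8 libraries, 1 panel per complex; thin lines join the libraries of 1 gene and day, and the black line is the median gene. Complex IV and V medians lie above those of complexes I, II and III in every library. For 70 of the 80 genes the libraries of day 5 and day 7 do not overlap, against 64.3% of all genes.

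Complex IV has several subunits with paired isoforms, 1 found in most tissues and 1 found mainly in heart, muscle, lung or testis. In these stem cells the broadly expressed form made up nearly all of each pair. COX4I1 stood at 213 to 354 FPKM, while COX4I2, the form known for lung and for induction by low oxygen, did not exceed 0.479 FPKM in any library. COX6A1 stood at 144 to 249 FPKM and its muscle partner COX6A2 at no more than 0.360 FPKM. COX6B1 stood at 143 to 427 FPKM and COX6B2, the testis form, at no more than 0.593 FPKM. COX7A2 stood at 196 to 327 FPKM and the muscle form COX7A1 at no more than 0.367 FPKM. COX7A2L, which takes part in supercomplexes, stood at 92.2 to 162 FPKM. COX7B2 was listed at 0 in all 8 libraries and COX8C, also a testis form, at no more than 0.478 FPKM, whereas COX7B stood at 216 to 598 FPKM and COX8A at 48.8 to 445 FPKM. These 6 minor isoforms and ATP5MGL, a copy of the subunit g gene, were the 7 members below 1 FPKM. The subunits COX5A and COX5B are not isoforms of each other, and they stood at 38.6 to 172 FPKM and 191 to 480 FPKM.

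The 3 genes for the same c-ring protein of the ATP synthase, ATP5MC1, ATP5MC2 and ATP5MC3, were all present. ATP5MC2 was the highest of the 3 in every library, at 153 to 265 FPKM. ATP5MC1 stood above ATP5MC3 on day 5, at 71.9 to 80.5 against 49.8 to 57.9 FPKM, and below it on day 7, at 12.0 to 15.8 against 28.8 to 34.6 FPKM. NDUFA4, long counted with complex I and now with complex IV, carries the symbol COXFA4 in the reference table and so falls outside the rule. COXFA4 stood at 99.7 and 83.4 FPKM in shEXOSC3 and 109.5 and 112 FPKM in shNS on day 5, against 43.7 and 35.3 FPKM and 44.7 and 41.4 FPKM on day 7. Its relative COXFA4L2, formerly NDUFA4L2, stood at 0.698 to 1.35 FPKM.

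Levels differed between the days for most members. The 4 tables were made separately, so levels of day 5 and day 7 are set side by side as a description only. Of the 80 members, 57 were lower in all 4 day 7 libraries than in all 4 day 5 libraries, 13 were higher in all 4, and 10 overlapped. The libraries of the days did not overlap for 70 of 80 members and 64.3% of all genes. Among all 13116 genes compared, 37.1% were lower in this way and 27.2% higher, and among the 1878 genes with a mean of at least 50 FPKM the shares were 36.2% and 33%. The median member was 1.58-fold lower on day 7, a log2 difference of -0.66, where the median of all genes was -0.10. The days share no library, and time in culture, library making and table making cannot be told apart.

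COX8A, a small complex IV subunit, showed the largest difference after UQCRHL, at 366 to 445 FPKM on day 5 and 48.8 to 52.9 FPKM on day 7, or 7.87-fold. ATP5MC1 was 5.58-fold lower on day 7. NDUFB4, a membrane-arm subunit of complex I, stood at 146 to 189.5 FPKM on day 5 and 30.4 to 42.3 FPKM on day 7, or 4.55-fold. The ubiquinone-module core subunits NDUFS7 and NDUFS8 were each 3.82-fold lower. None of these ranges overlapped. Among the 13 that were higher on day 7, UQCRH was 3.14-fold higher, the complex IV subunit COX6C 2.98-fold (75.6 to 103 FPKM on day 5, 243 to 270.2 FPKM on day 7) and ATP5F1E, the epsilon subunit of the ATP synthase, 2.69-fold. NDUFS5 was 2.08-fold higher, the stalk subunit ATP5PD 1.98-fold and the mitochondrial acyl carrier protein NDUFAB1 1.72-fold. Subunits of 1 complex therefore differed in opposite directions between the days.

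The difference between days was correlated with the base composition of the coding sequence. A coding sequence was matched for 78 of the 80 members and for 86.0% of all genes. Median GC content was nearly the same, at 51.2% in these members and 51.6% in all genes with a matched sequence. Across the 78 members, GC content and the log2 difference of day 7 over day 5 had a Pearson correlation of -0.50 and a Spearman correlation of -0.55, and across 11281 genes the values were -0.52 and -0.55. These are correlations across genes that share the same 8 libraries, and they describe these libraries. In the 26 members with the highest GC content, 54.3% to 68.0%, 25 were lower in all day 7 libraries and 0 higher, with a median 2.14-fold difference. In the 26 with the lowest GC content, 37.3% to 48.4%, 13 were lower and 8 higher, with a median of 1.23-fold. The 26 in between had a median of 1.55-fold. Of all genes compared, 37.1% were lower and 27.2% higher in this way, and their shares within these GC ranges were not counted. The part that base composition, library preparation or culture time plays in the difference was not tested. The members' coding sequences were short, with a median of 419 bases against 1350 bases for all genes. Length and the day difference had a Spearman correlation of 0.01 among the members. It was 0.18 across 11281 genes and 0.25 among genes with a mean of at least 50 FPKM.

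**Figure D3:**
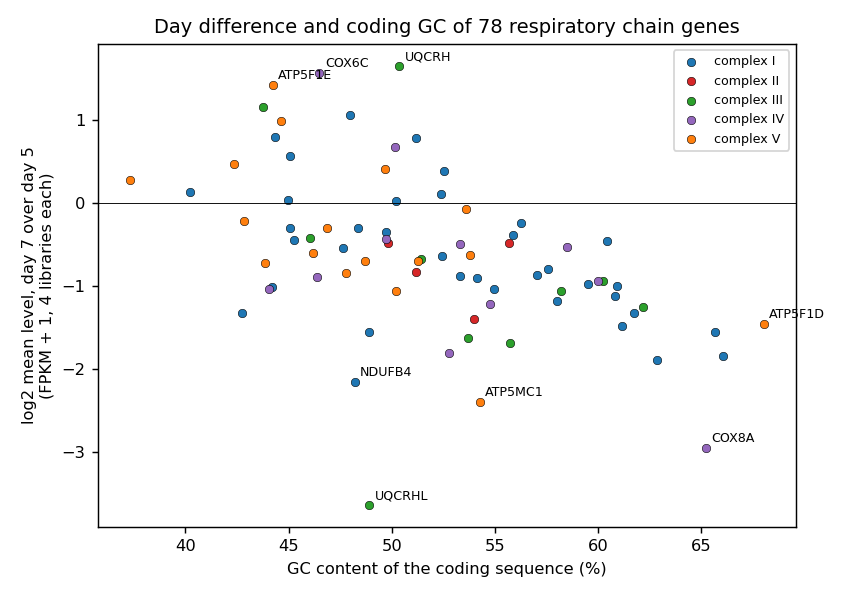
GC content of the coding sequence (%, horizontal) against log2 of the mean FPKM + 1 of the 4 day 7 libraries over that of the 4 day 5 libraries (vertical), 1 point per member with a matched sequence (n = 78), coloured by complex. Points slope downward from left to right, with a Spearman correlation of -0.55, and UQCRHL and COX8A lie lowest.

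The comparison the study was built for is doxycycline against none in shEXOSC3, set beside the same comparison in shNS. Ratios are log2((FPKM with doxycycline + 1)/(FPKM without + 1)) within a table, on which differences of genes at low levels come out too small, and the adjusted log2 difference is the shEXOSC3 ratio minus the shNS ratio of the same day. In bulk RNA, fewer cells that express a gene and less RNA per cell cannot be told apart. On day 5 the summed level of the 80 members in shEXOSC3 was 86.5% of the untreated level with doxycycline, and in shNS it was 105%. On day 7 the sums were 88.7% in shEXOSC3 and 90.4% in shNS. On day 7, then, the sum was lower with doxycycline in the line with the control hairpin too. Beside the day 5 difference, the 4 fibroblast genes that passed had a median ratio of 0.65 in shEXOSC3 and 0.04 in shNS on day 5. The summed fibroblast list stood at 99.4 and 137 FPKM in shEXOSC3 and at 98.4 and 107 FPKM in shNS. THY1 alone made up 82.0 and 107 FPKM of this in shEXOSC3 and 74.1 and 84.9 FPKM in shNS. The 8 pluripotency genes had medians of -0.21 and -0.18 on day 5. On day 7 the medians were 0.11 in shEXOSC3 and -0.08 in shNS for the fibroblast genes, and -0.34 and -0.30 for the pluripotency genes. Of the fibroblast list COL3A1, at no more than 0.0543 FPKM, did not pass, nor did DCN and LUM, listed at 0. Whether fibroblasts were present was not tested, nor was the part of any cell type in the result.

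On day 5 in shEXOSC3, 65 of 80 members had a ratio below 0, against 48.2% of all genes and 68.1% of the genes with a mean of at least 50 FPKM, and the median was -0.15. In shNS on day 5, 20 of 80 were below 0, against 45.8% of all genes and 35.6% of the abundant ones, and the median was 0.08. On day 7, 56 of 80 were below 0 in shEXOSC3 (50.6% of all genes, 69.9% of abundant genes) with a median of -0.09. In shNS on day 7, 66 of 80 were below 0 (50.2% and 67.8%) with a median of -0.15. The abundant genes as a whole leaned the same way as the members in all 4 tables, with medians of -0.11, -0.12, 0.05 and -0.08 in shEXOSC3 on days 5 and 7 and in shNS on days 5 and 7.

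The adjusted log2 difference had a median of -0.23 on day 5 and 0.07 on day 7 among the members, against 0.00 and -0.01 for all genes and -0.18 and -0.05 for abundant genes. On day 5, 67 of 80 members were below 0 (50.1% of all genes, 72% of abundant genes). On day 7, 32 of 80 were (51.4% and 59.7%). The days went opposite ways for many members, with 38 of 80 below 0 on day 5 and above 0 on day 7, against 20.9% of all genes, and 3 with the reverse, against 21.5%. A further 29 were below 0 on both days, against 28.9%, and 10 above 0 on both days, against 26%. The days differ in both lines here, since 49 of 80 members had an shNS ratio above 0 on day 5 and below 0 on day 7, against 25% of all genes.

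**Figure D4:**
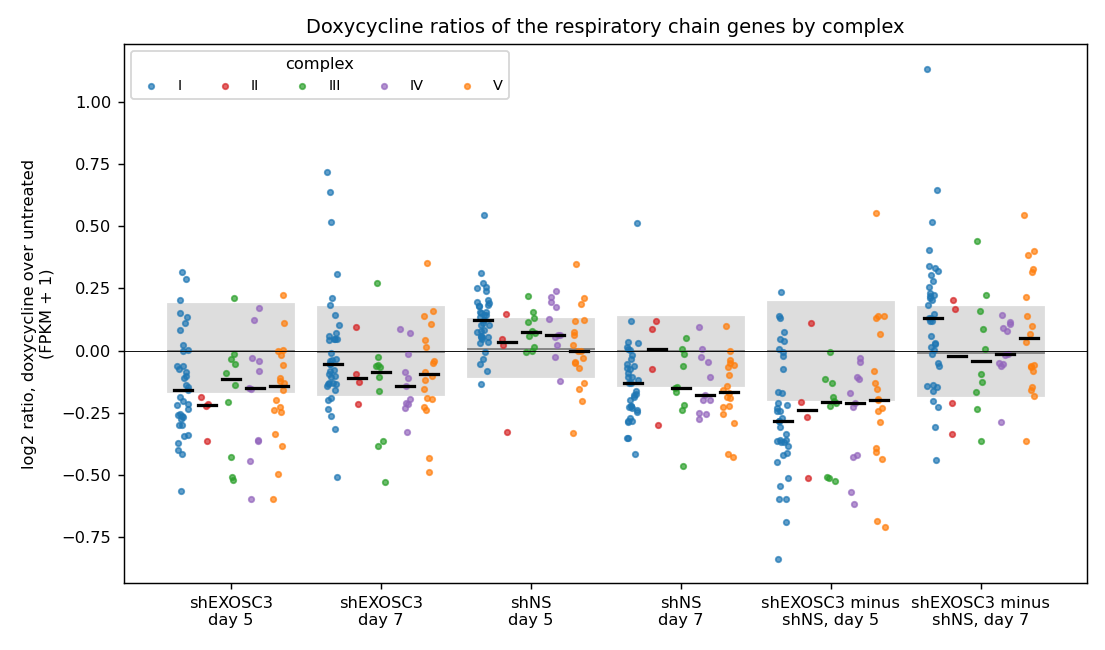
Log2 ratio of doxycycline over untreated (FPKM + 1) for each member in the 4 tables, and the shEXOSC3 ratio minus the shNS ratio on each day; points are genes coloured by complex, black bars are medians per complex, and grey boxes are the interquartile range of all 13116 genes. The day 5 points of shEXOSC3 lie mostly below 0 and those of shNS mostly above, and on day 7 both lines lie mostly below 0.

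By size, few members stood out. A difference of at least 0.5 on the log2 scale was used as the size of interest. In shEXOSC3 on day 5, 0 members reached 0.5 and 5 reached -0.5, where 6.11% and 4.14% of all genes did. The 5 were NDUFA6, UQCRB, UQCRHL, COX7B and ATP5PF, but the UQCRH and UQCRHL sum had -0.38 there, so 4 were left with the pair summed. In shEXOSC3 on day 7, 3 reached 0.5 (NDUFA3, NDUFA7 and NDUFC2; 6.69% of all genes) and 2 reached -0.5 (NDUFAB1 and UQCRH; 4.73%), and the pair's sum had -0.52. In shNS the counts were 1 higher (NDUFA11) and 0 lower on day 5, where 1.95% and 2.17% of all genes were, and 1 higher (NDUFS7) and 0 lower on day 7, where 3.32% and 2.94% were. For the adjusted difference, 1 member was higher (6.9% of all genes) and 14 lower (4.31%) on day 5, and 4 were higher (7.31%) and 0 lower (5.12%) on day 7. The 14 were NDUFA6, NDUFA11, NDUFA12, NDUFB3, NDUFB5, NDUFV3, SDHB, UQCR10, UQCRB, UQCRHL, COX6B1, COX7B, ATP5F1C and ATP5MK, and the member that was higher on day 5 was ATP5F1D. With the pair summed 13 were left, as the sum had -0.41. With the doxycycline libraries of the lines compared directly across tables, NDUFA11 (-0.59) was the 1 of the 14 that reached -0.5, where 2.55% of all genes did. The 4 higher on day 7 were NDUFA3, NDUFA7, NDUFC2 and ATP5MC1, of which NDUFC2 alone reached 0.5 across tables, where 6.95% of all genes did. Among abundant genes, 8.47% were lower by that size on day 5 and 5.01% higher, and 6.34% were lower and 6.34% higher on day 7. No member reached 0.5 in the same direction on both days (0 higher and 0 lower), where 1.42% and 0.64% of all genes did.

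The library of shEXOSC3 with doxycycline was the lowest of the 4 day 5 libraries for 48 of 80 members, where this held for 30.3% of all genes and 48.2% of abundant genes, and the highest for 4, against 31% and 11.4%. On day 7 it was the lowest for 34 of 80, against 31.3% and 50.5%, and the highest for 14, against 32.9% and 18.8%. This ordering sets levels of separately made tables side by side and is a description.

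**Figure D5:**
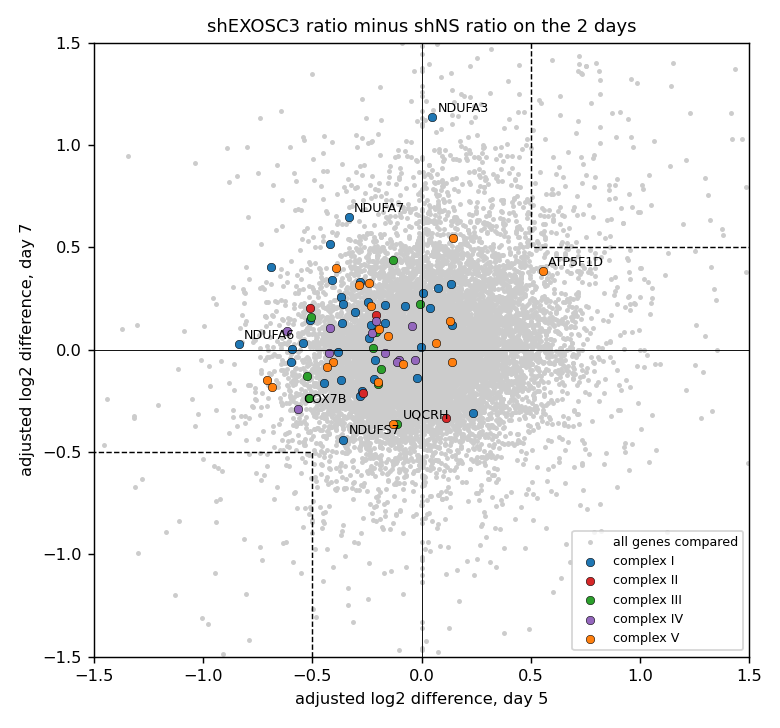
Adjusted log2 difference on day 5 (horizontal) against day 7 (vertical), with members coloured by complex and all genes compared in grey; the dashed corners mark 0.5 in size on both days, and 490 genes lie outside the axes. Most members lie left of 0 on day 5 and spread to both sides of 0 on day 7, and 0 members lie in the dashed corners.

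Complex I, the NADH dehydrogenase, had a summed level with doxycycline of 89.1% of untreated on day 5 and 92.9% on day 7 in shEXOSC3, and of 107% and 91.4% in shNS. Its median adjusted difference was -0.28 on day 5, with 30 of 37 genes below 0, and 0.13 on day 7, with 11 of 37 below 0. Of its 7 nuclear core subunits, which carry the flavin and the iron-sulfur clusters, 6 were below 0 on day 5 and 3 on day 7. Below 0 on day 5 were 50.1% of all genes and 72% of abundant genes, and on day 7 51.4% and 59.7%. NDUFA6, an accessory subunit that binds the acyl carrier protein, had the lowest day 5 adjusted difference of the 80 members. It stood at 114 and 76.8 FPKM without and with doxycycline in shEXOSC3 on day 5, against 83.3 and 101 FPKM in shNS. On day 7 the values were 72.4 and 68.5 FPKM and 88.5 and 82.1 FPKM. The adjusted difference was -0.84 on day 5 and 0.03 on day 7, and the untreated shEXOSC3 library was the highest of the day 5 libraries. Comparing the doxycycline libraries of the 2 lines directly gave -0.39 on day 5.

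NDUFS7, the core subunit with the last iron-sulfur cluster before ubiquinone, had the lowest day 7 adjusted difference of complex I. It stood at 43.4 and 40.3 FPKM in shEXOSC3 and 40.5 and 48.6 FPKM in shNS on day 5, against 12.3 and 12.9 FPKM and 8.09 and 12.0 FPKM on day 7. Its adjusted differences of -0.36 and -0.44 thus came with a higher level in shNS under doxycycline on both days. Compared directly, the doxycycline libraries differed by -0.26 on day 5 and 0.10 on day 7.

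At the upper end of complex I stood NDUFA3, a small membrane-arm subunit. NDUFA3 was at 221 and 209 FPKM in shEXOSC3 and 183 and 167 FPKM in shNS on day 5, against 50.1 and 83.1 FPKM and 82.5 and 61.6 FPKM on day 7. The adjusted difference was 0.05 on day 5 and 1.13 on day 7, the largest of the 80 members. The untreated shEXOSC3 library was the lowest and the untreated shNS library nearly the highest of the 4 on day 7, and the doxycycline libraries differed by 0.43. NDUFB2, also of the membrane arm, stood at 115 and 141 FPKM in shEXOSC3 and 159.8 and 178 FPKM in shNS on day 5, against 126 and 139 FPKM and 126 and 111 FPKM on day 7. Its adjusted differences were 0.13 and 0.32, but the doxycycline libraries differed by -0.34 on day 5 and 0.32 on day 7. NDUFS5, the most abundant complex I gene by the mean of both days, stood at 460 and 399 FPKM in shEXOSC3 and 456 and 482 FPKM in shNS on day 5. On day 7 NDUFS5 was at 1010.3 and 812 FPKM and at 991 and 931 FPKM, with adjusted differences of -0.28 and -0.22.

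Further complex I genes reached 0.5 on 1 day only. NDUFA7 stood at 39.0 and 56.2 FPKM in shEXOSC3 and 48.7 and 44.5 FPKM in shNS on day 7, an adjusted difference of 0.65 against -0.33 on day 5. NDUFC2 stood at 12.4 and 19.9 FPKM and at 11.8 and 12.9 FPKM on day 7, with 0.52 against -0.42 on day 5. NDUFC2 overlaps the read-through gene NDUFC2-KCTD14, which stood at 20.7 and 16.6 FPKM in shEXOSC3 and 18.9 and 19.4 FPKM in shNS on day 7, and the 2 can share reads. NDUFA11 stood at 57.9 and 84.9 FPKM in shNS on day 5, which makes up most of its adjusted difference of -0.69. In shEXOSC3 it stood at 62.1 and 56.0 FPKM.

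Complex II, succinate dehydrogenase, links the chain to the tricarboxylic acid cycle. Its sum was 82.0% of untreated on day 5 and 95.0% on day 7 in shEXOSC3, and 105% and 89.9% in shNS. The flavoprotein SDHA stood at 31.98 and 28.0 FPKM in shEXOSC3 and 27.0 and 27.5 FPKM in shNS on day 5, against 20.9 and 22.4 FPKM and 19.02 and 18.0 FPKM on day 7. Its adjusted differences were -0.21 and 0.17. The iron-sulfur subunit SDHB stood at 96.4 and 74.7 FPKM and at 82.3 and 91.4 FPKM on day 5, against 66.5 and 62.2 FPKM and 64.5 and 52.3 FPKM on day 7. SDHB had the lowest day 5 difference of the complex, at -0.51, and 0.20 on day 7. The anchor SDHC stood at 11.0 and 9.37 FPKM and at 9.63 and 7.47 FPKM on day 5, against 5.77 and 4.82 FPKM and 4.14 and 4.58 FPKM on day 7. SDHC was lower with doxycycline in 3 of 4 tables, with adjusted differences of 0.11 and -0.34. The anchor SDHD stood at 66.3 and 56.7 FPKM and at 70.1 and 72.4 FPKM on day 5, against 25.6 and 23.3 FPKM and 23.8 and 25.3 FPKM on day 7. SDHD was the 1 gene of the complex below 0 on both days, at -0.27 and -0.21.

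Complex III had the lowest sums with doxycycline in shEXOSC3 on day 7, at 76.3% of untreated, after 83.0% on day 5. In shNS the sums were 104% and 89.9%. Without the hinge protein pair, the other 8 genes summed to 90.9% and 92.7% in shEXOSC3 and to 107% and 92.6% in shNS, so the low sum of the complex on day 7 rested on the pair. UQCRH and UQCRHL together stood at 1000.3 and 770.0 FPKM in shEXOSC3 and at 958 and 978 FPKM in shNS on day 5, against 1035 and 722 FPKM and 1123 and 999 FPKM on day 7. The sum was lower with doxycycline in shEXOSC3 on both days, and the shEXOSC3 library with doxycycline was the lowest of the 4 on each day. Its adjusted differences were -0.41 and -0.35. Taken apart, UQCRH had -0.11 and -0.36 and UQCRHL -0.53 and -0.13, so the days differ less for the sum than for either gene.

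UQCRB stood at 31.1 and 21.4 FPKM in shEXOSC3 and 26.5 and 26.4 FPKM in shNS on day 5, against 66.8 and 51.0 FPKM and 63.6 and 57.3 FPKM on day 7. Its adjusted differences were -0.51 and -0.23, and those of the pseudogene UQCRBP1 were -0.76 and -0.24. UQCR10, also a small accessory subunit, had -0.51 on day 5 and 0.16 on day 7. At the upper end, UQCRFS1, the Rieske iron-sulfur protein, was higher with doxycycline in all 4 tables. It stood at 85.4 and 99.1 FPKM in shEXOSC3 and 81.8 and 95.4 FPKM in shNS on day 5, against 28.9 and 35.2 FPKM and 24.7 and 25.6 FPKM on day 7. The adjusted differences of UQCRFS1 were -0.01 and 0.22. UQCRQ, a small accessory subunit, stood at 50.3 and 49.8 FPKM and at 56.4 and 61.1 FPKM on day 5, against 32.6 and 32.04 FPKM and 40.8 and 29.3 FPKM on day 7. Its value of 0.44 on day 7 rests on shNS, where it was lower with doxycycline, since it was level in shEXOSC3.

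Complex IV, cytochrome c oxidase, had sums of 83.0% and 90.9% of untreated in shEXOSC3 on days 5 and 7, and of 106% and 89.7% in shNS. All 11 genes were below 0 by the adjusted difference on day 5 and 6 were on day 7. Of all genes 50.1% and 51.4% were below 0 on these days, and of abundant genes 72% and 59.7%. COX7B, a small subunit needed for assembly, stood at 598 and 395 FPKM in shEXOSC3 and 491 and 482 FPKM in shNS on day 5, against 247 and 216 FPKM and 237 and 253 FPKM on day 7. The shEXOSC3 library with doxycycline was the lowest of the 4 on each day. Its adjusted differences were -0.57 and -0.29. With a smaller size of 0.25, COX7B and NDUFS7 were the 2 members lower on both days, where 4.32% of all genes were, and ATP5F1D was the 1 member higher, where 5.89% were.

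COX6B1, the subunit that faces the intermembrane space, stood at 427 and 314 FPKM in shEXOSC3 and 325 and 367 FPKM in shNS on day 5, against 158 and 157 FPKM and 154 and 143 FPKM on day 7. Its adjusted difference was -0.62 on day 5 and 0.09 on day 7. COX7C, highest of the members by the mean of both days, stood at 1528 and 1191 FPKM and at 1431 and 1493 FPKM on day 5, against 781 and 706 FPKM and 841 and 707 FPKM on day 7. Doxycycline libraries of both lines were thus level on day 7, and the adjusted differences were -0.42 and 0.11. COX4I1, the largest nuclear subunit, stood at 335 and 301 FPKM and at 340.3 and 354 FPKM on day 5, against 246 and 228 FPKM and 254 and 213 FPKM on day 7. COX8A stood at 366 and 413 FPKM and at 383 and 445 FPKM on day 5, against 48.8 and 51.3 FPKM and 52.9 and 51.3 FPKM on day 7. These 2 were the highest of the complex by the mean adjusted difference of both days, with -0.21 and 0.14 for COX4I1 and -0.04 and 0.12 for COX8A.

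Complex V, the ATP synthase, had sums of 88.5% and 87.6% of untreated in shEXOSC3 on days 5 and 7, and of 102% and 90.1% in shNS. Its median adjusted difference was -0.20 on day 5, with 13 of 18 genes below 0, and 0.05 on day 7, with 8 of 18 below 0. The shares below 0 were 50.1% and 51.4% of all genes and 72% and 59.7% of abundant genes. In the catalytic head, ATP5F1C, the gamma subunit that turns inside it, stood at 292 and 207 FPKM in shEXOSC3 and 206 and 238 FPKM in shNS on day 5, against 145 and 139.9 FPKM and 136 and 146 FPKM on day 7. Its adjusted differences were -0.71 and -0.15. The tables split this gene unevenly between transcripts. In untreated shNS cells on day 5, NM_005174 was listed at 0.00402 FPKM and NM_001001973 at 206 FPKM, while with doxycycline they were listed at 150.4 and 87.8 FPKM.

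ATP5F1D, the delta subunit at the base of the central stalk, stood at 35.7 and 41.7 FPKM in shEXOSC3 and 36.3 and 28.6 FPKM in shNS on day 5, against 11.6 and 13.03 FPKM and 13.4 and 11.3 FPKM on day 7. It was higher with doxycycline in shEXOSC3 and lower in shNS on both days, and its adjusted differences were 0.55 and 0.38. ATP5MC1, of the c ring, stood at 74.5 and 80.5 FPKM and at 73.5 and 71.9 FPKM on day 5, against 12.1 and 15.8 FPKM and 13.9 and 12.0 FPKM on day 7. ATP5MC1 had 0.14 and 0.55, while the adjusted differences were 0.07 and 0.03 for ATP5MC2 and 0.13 and 0.14 for ATP5MC3. These signs did not hold throughout. Across tables ATP5MC2 had -0.09 and -0.12 and ATP5MC3 -0.08 on day 5, and with the most abundant transcript alone ATP5MC1 had -0.055 on day 7.

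ATP5MK, a small subunit that helps dimers form, stood at 372 and 294 FPKM in shEXOSC3 and 311 and 396 FPKM in shNS on day 5, against 429.8 and 364 FPKM and 444 and 426 FPKM on day 7. It was the lowest of the complex by the mean adjusted difference of both days, with -0.69 and -0.18. ATP5ME, the most abundant of the complex by the mean of both days, stood at 655 and 606 FPKM and at 659 and 717 FPKM on day 5, against 424 and 437 FPKM and 444 and 394 FPKM on day 7. Its adjusted differences, -0.23 and 0.22, changed sign between days as those of many members did. Most of its day 5 level was a noncoding transcript, listed at 370 to 444 FPKM, with the coding transcript at 211 to 289 FPKM. On day 7 the coding transcript stood at 394 to 437 FPKM and the noncoding one at no more than 8.74 FPKM. The coding transcript alone was thus higher on day 7, unlike the sum, and had adjusted differences of 0.14 and 0.19. ATP5PF, coupling factor F6 of the outer stalk, had -0.60 in shEXOSC3 on day 5 but also -0.20 in shNS, at 125 and 82.1 FPKM and 93.9 and 81.4 FPKM. The doxycycline libraries of the 2 lines differed by 0.01 for ATP5PF on that day.

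Genes taken by the names of ribosomal proteins were set beside the members. The 77 mitochondrial ribosomal protein genes that passed had medians of -0.13 and -0.11 in shEXOSC3 on days 5 and 7 and 0.07 and -0.16 in shNS. Their adjusted medians of -0.22 on day 5 and 0.07 on day 7 lay within 0.02 of those of the respiratory chain genes. The 92 genes that passed with names beginning as those of cytosolic ribosomal proteins do had adjusted medians of -0.29 and 0.02. That name rule also takes in genes of other kinds, such as the RPS6K kinases, so the list is not purely ribosomal. The difference between these lists was not tested.

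Genes that build, feed and regulate the chain were described from lists. Of the 56 assembly factors that passed for complexes I to V, 5 were lower and 0 higher by at least 0.5 in the adjusted difference on day 5, and 2 were lower and 6 higher on day 7. Among all genes 4.31% were lower and 6.9% higher on day 5, and 5.12% and 7.31% on day 7. NDUFAF2, a complex I assembly factor, had -0.61 and -0.41, and PET100, for complex IV, -0.33 and -0.39. TMEM186, also for complex I, had 0.06 and 0.69, and SDHAF1, for complex II, -0.28 and 0.90 at levels of 3.18 to 11.5 FPKM. The lowest for complex II was SDHAF4 at -0.32 and -0.02, and the highest for complex IV was COX14 at 0.22 and 0.57. Complex III factors ran from UQCC2 (-0.57 and -0.13) to UQCC1 (0.04 and 0.37). Complex V factors ran from ATPAF2 (-0.33 and 0.13) to FMC1 (0.10 and 0.92), the latter at levels of 0.430 to 2.84 FPKM. Of 16 tricarboxylic acid cycle and pyruvate dehydrogenase genes, 8 were below 0 on both days and 2 above, against 28.9% and 26% of all genes. The succinyl-CoA ligase subunit SUCLG2 had -0.56 and -0.45, and OGDH, of the 2-oxoglutarate dehydrogenase complex, 0.35 and 0.26. Of 19 import genes, 18 were below 0 on day 5 and 8 on day 7, against 50.1% and 51.4% of all genes and 72% and 59.7% of abundant genes. TOMM5, a small part of the outer membrane translocase, was lowest at -0.57 and 0.07, and TIMM8A, a chaperone of the intermembrane space, highest at 0.46 and 0.33. Among 12 genes for ubiquinone synthesis and cytochrome c, COQ5 was lowest at -0.47 and -0.39, COQ8A highest at 0.11 and -0.09, and cytochrome c itself, CYCS, had -0.18 and -0.18. In these lists together 0 genes passed 0.5 on both days.

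Transcription factors known to act on respiratory chain promoters were measured as well. NRF1 had adjusted differences of -0.17 and -0.19, GABPA, the DNA-binding subunit of GABP, -0.18 and -0.16, and its partner GABPB1 -0.41 and -0.17. YY1 had -0.25 and 0.07. The coactivator PPRC1 had 0.52 and -0.05, and it was the 1 of 13 regulators that passed the level filter to reach 0.5 on a day. The related coactivator PPARGC1A, known for brown fat and muscle, was below the filter.

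Promoter sequences were searched for the motifs of these factors, to see what the members share in sequence. RefSeq promoters (GRCh38.p14, 250 bases before to 50 after the start) were matched for 66 of the 80 members and 15843 coding genes in all. The searched letters were GCGCA and GCGC with any 1 base between them for NRF1, CCGGAAG for ETS factors such as GABP, and AA followed by any 1 base and ATGGCGG for YY1, on both strands and with no mismatch, and no motif contains another. The members had passed a mean of 1 FPKM, while the promoters of all coding genes were not filtered by level. Motif shares among expressed or abundant genes alone were not counted. Whether a higher share is particular to the members was therefore not tested. An NRF1 match was found in 16 of 66 members (24.2%) and in 8.58% of all promoters. An ETS match was found in 20 of 66 (30.3%) and 14.2%, and a YY1 match in 14 of 66 (21.2%) and 3.25%. At least 1 of the 3 was found in 39 of 66 (59.1%) and 23.2%, while CCAAT, taken as a comparison, was found in 22 of 66 (33.3%) and 36.4%. For each motif 1 example of 60 bases is shown, from the most abundant member with a match in a window free of annotated exons, with the match in capitals.
NDUFA12: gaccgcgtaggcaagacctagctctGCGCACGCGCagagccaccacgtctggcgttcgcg
ATP5PD: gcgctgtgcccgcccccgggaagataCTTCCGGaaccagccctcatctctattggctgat
NDUFS8: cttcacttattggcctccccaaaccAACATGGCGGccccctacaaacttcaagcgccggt
These are chr12:95003779-95003838 on the minus strand (NRF1), chr17:75047037-75047096 on the minus strand (ETS, on the reverse strand of the promoter) and chr11:68030476-68030535 on the plus strand (YY1). The match starts 116, 101 and 180 bases before the annotated start of the gene. A match is a run of letters and does not show that a factor binds.

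Doxycycline ratios of members with and without a motif were set side by side, and their difference was not tested. The median adjusted difference on day 5 was -0.21 with an NRF1 match and -0.24 without, -0.24 with an ETS match and -0.22 without, and -0.29 with a YY1 match and -0.22 without. On day 7 the medians were 0.15 and 0.05, 0.07 and 0.08, and 0.10 and 0.07. The example genes had adjusted differences of -0.51 and 0.15 (NDUFA12), -0.41 and -0.06 (ATP5PD) and -0.28 and 0.33 (NDUFS8). GC content moved with these values as well. Its Spearman correlation with the adjusted difference was 0.32 on day 5 and 0.35 on day 7 among the 78 members. Across 11281 genes it was 0.29 and 0.20. For coding length the values were 0.11 and -0.11 among the members and 0.29 and -0.07 across 11281 genes. Among genes with a mean of at least 50 FPKM they were 0.27 and -0.22. Length and the shNS ratio had -0.20 on day 5 and 0.20 on day 7 across 11281 genes. The 26 members with the lowest GC content had adjusted medians of -0.38 and -0.06, and the 26 with the highest -0.21 and 0.14. The part of base composition or of length in the doxycycline ratios was not tested.

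The authors' deposited table for each line and day holds a test of 1 library against 1 for each transcript. In the authors' deposited tables, 0 of the 163 transcripts of the 80 members were marked significant in any of the 4, as were 0 of all transcripts. The smallest q among members was 0.765 (UQCRHL) and 0.715 (ATP5F1C) in shEXOSC3 on days 5 and 7 and 0.318 (ATP5F1C) and 0.203 (NDUFS5) in shNS, in the authors' deposited tables. An unadjusted p under 0.05 was given there for 2 and 3 member transcripts in shEXOSC3 and 3 and 2 in shNS. In the authors' deposited tables these are 1.23% and 1.84% in shEXOSC3 and 1.84% and 1.23% in shNS, against 2.07%, 2.38%, 2.08% and 2.82% of all transcripts.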

How the data were processed

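The labels' protocols name Trizol for total RNA, Ribo-Zero for removal of ribosomal RNA and ScriptSeq v2 kits for the libraries. CASAVA 1.8, TopHat and Cufflinks were used with build hg19 (GRCh37), per the submitters' processing notes. Other versions, the scaling option and whether counting used strand were not given in the sources used here. The 4 tables hold FPKM deposited by the authors for 49235 RefSeq transcripts, each with the untreated and doxycycline library of 1 line and day. They also hold a p-value and a q-value of the authors for 1 library against 1, per the file headers. The depth is unknown.

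Groups came from the sample titles. Accessions were matched to symbols for 48147 transcripts (97.8%) through a RefSeq table (GRCh38.p14, names only). FPKM were summed per gene, and the 55 genes with a failed or too deep estimate were left out. Genes with a mean of at least 1 FPKM (13116) were compared on the log2(FPKM + 1) scale within a table, in Python 3.11.15 with pandas 2.3.3, numpy 2.4.6 and matplotlib 3.10.9. With 1 library per group, genes were called by size alone, at 0.5. Antisense and overlapping genes cannot be told apart without strand. The members and lists were chosen with earlier results of these data known. Values are given for the 2 highest and 2 lowest members of each complex by the mean adjusted difference of both days, the most abundant member of each, the isoform pairs, the SDH genes, and the highest and lowest of each list of assembly, import, carrier, cycle and regulator genes, while cell type marker lists are given by counts, sums or medians. NDUFA6, NDUFA7, NDUFC2, NDUFA11, UQCR10, ATP5PF, ATP5F1C transcripts, the day differences and the named regulators were also described after their values were seen. The scripts were tested on simulated data. Alternatives were other pseudocounts, level filters, centring, a single transcript per gene, other sizes and comparison across tables.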

Additional observations from a re-analysis of the deposited data

Results flagged for a closer look

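For 6 members, both days of shEXOSC3 moved one way with doxycycline and both days of shNS the other way. ATP5F1D (mean adjusted log2 difference 0.47) and ATP5MC1 (0.34) were higher in shEXOSC3 and lower in shNS. ATP5F1C (-0.43), NDUFS4 (-0.31), SDHD (-0.24) and NDUFA10 (-0.24) were lower in shEXOSC3 and higher in shNS. The difference was not tested, since each group is 1 library. Some of the shNS ratios were very small, at 0.006 for NDUFA10 and 0.035 for NDUFS4 on day 7 and -0.03 for ATP5MC1 on day 5. With the transcript of the highest mean alone, the day 7 adjusted differences of ATP5F1D, ATP5MC1 and ATP5F1C changed sign. The first pattern held for 2 of 80 members (2.5%) and 4.48% of all genes, and the other for 4 of 80 (5%) and 4.99%. NDUFS4, an accessory subunit of the NADH-oxidizing module of complex I, stood at 139.7 and 116 FPKM in shEXOSC3 and 126 and 144 FPKM in shNS on day 5, against 219 and 199.9 FPKM and 246 and 252 FPKM on day 7. NDUFA10, an accessory subunit of the membrane arm, stood at 16.5 and 14.1 FPKM and at 16.4 and 17.1 FPKM on day 5, against 17.4 and 15.1 FPKM and 16.3 and 16.4 FPKM on day 7.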

How the results depend on the processing

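The medians of the members moved by less than 0.1 on the log2 scale under each alternative run. The adjusted median ran from -0.23 to -0.17 on day 5 and from 0.00 to 0.08 on day 7, and the medians of single tables moved by less than 0.03. Counts of members past a size did not all hold within 1.5 times. With doxycycline libraries compared across tables, the 14 members at or below -0.5 on day 5 fell to 1 and the 4 at or above 0.5 on day 7 to 1. Of all genes 2.55% and 6.95% were past these sizes across tables. With the transcript of the highest mean alone, the adjusted counts were 2 higher on day 5 and 7 higher and 4 lower on day 7. That setting gave 1 higher and 8 lower in shEXOSC3 on day 5, 5 and 6 on day 7, and 3 and 1 in shNS on day 5, 5 and 5 on day 7. With a pseudocount of 5 FPKM the adjusted counts higher were 0 on day 5 and 2 on day 7, with 1 lower in shEXOSC3 and 0 higher in shNS on day 7. With a mean of at least 50 FPKM the higher counts were 0 and 2 for the adjusted difference, where 5.01% and 6.34% of such genes were higher. In shNS they were 0 and 0 at that level, where 44 and 84 of 1878 genes were higher. With no minimum 2 were higher in shNS on day 7. With a size of 0.25, members higher on both days numbered 1 and those lower 2, in place of 0 and 0, where 5.89% and 4.32% of all genes were. Shares of all genes were not counted for the transcript of the highest mean, the pseudocount of 5 FPKM or no minimum. The member counts of those settings therefore have no background beside them.

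Of 76 gene values named, 7 changed sign with the transcript of the highest mean. NDUFB5 had 4.76 on day 5 and ATP5MC1 -0.055 on day 7, and below a size of 0.5 as reported the sign changed for NDUFB5 on day 7, NDUFS5 (0.82), ATP5F1C (0.21) and ATP5F1D (-0.07) on day 7 and ATP5ME on day 5 (0.14). The transcript split differed between libraries in 18 of the 39 members with several transcripts. Comparing across tables changed the sign of 16 values, of which 0 had reached 0.5, and moved 48 by at least 0.1. A pseudocount of 5 FPKM changed the sign of 1, NDUFV3 on day 7. The 50 FPKM filter, the UQCRH and UQCRHL sum and the counts past a size under each setting were chosen after seeing the data. Unknown depth limits every value. No paired analysis was possible because each group has 1 library, and no replicate could be left out.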
